A study of Mus musculus with 12 samples.

Results

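The genes described here are 9 genes of antigen presentation by MHC class II: the chains H2-Aa, H2-Ab1 and H2-Eb1, the invariant chain Cd74, the transactivator Ciita, the peptide loading genes H2-DMa, H2-DMb1 and H2-DMb2, and the protease Ctss. They are 9 of the 18467 genes in the deposited count table, listed by symbol and function, and they were selected with the counts of the same libraries in view. Their levels and fold changes are therefore given as a description, without p-values. All 9 passed the filter on low counts.

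Macrophages were isolated from the marrow of mice in a design of 4 groups with 3 libraries each, the replicates coming from different mice. The metastasis model used female Albino B6 mice aged 8 weeks at injection, and the labels do not give the strain, sex or age of the healthy controls. General macrophages were sorted as CD11b+F4/80+ cells and niche macrophages as VCAM1+CD163+CCR3+ cells, the sort that the series' design text calls niche-specific. Normal marrow came from healthy control mice, and metastatic marrow from mice that had received the breast cancer line E0771 by caudal artery injection. Femur and tibia were flushed and red cells lysed before staining. The labels name no antigen used to exclude other marrow cells. The titles call both sorts general macrophages, so libraries were assigned to a population by their antigens. Libraries are called general normal 1 to 3, general metastatic 1 to 3, niche normal A to C and niche metastatic 1 to 3.

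MHC class II molecules are pairs of an alpha and a beta chain that carry peptides from the endosome to the cell surface for CD4 T cells. H2-Aa and H2-Ab1 encode the pair called I-A, and H2-Eb1 encodes the beta chain of I-E, whose alpha chain is not made in mice of the b haplotype. The invariant chain Cd74 fills the groove of a new pair and guides it to the endosome, cathepsin S (Ctss) trims the invariant chain there, and the H2-DM pair exchanges the last fragment for peptide. Dendritic cells and B cells transcribe these genes at a high level, and many macrophages do so at a lower level that interferon gamma raises through Ciita. Ciita binds no DNA itself but joins factors that sit on an X box and a Y box shared by class II promoters.

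Of the 9 genes, 6 lie within 197 kb of chromosome 17 in the mm10 (GRCm38) assembly, from H2-DMa at chr17:34119541-34139101 to H2-Eb1 at chr17:34305867-34316674. Between them lie H2-DMb2 at chr17:34143307-34151555, H2-DMb1 at chr17:34153072-34160230, H2-Ab1 at chr17:34257689-34269419 and H2-Aa at chr17:34282744-34287823, which alone of the 6 is on the minus strand. Ciita lies at chr16:10480059-10528418, Ctss at chr3:95526786-95556403 and Cd74 outside all of these regions. All are annotated as protein coding in GENCODE M21. In that annotation H2-DMa shares 3094 bases with Brd2 on the other strand, H2-Eb1 shares 2204 bases with the antisense gene Gm20513, and Ciita shares 25888 bases with Dexi on the other strand. The sources do not say whether counting used strand, so counts of these members may hold reads of their partners.

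RefSeq promoter sequences of the GRCm38.p6 assembly, from 250 bases before to 50 after each start, matched 6 of the 9 genes, and H2-Ab1, Cd74 and Ciita had no entry. The 150 bases before the start are shown for H2-Aa and H2-Eb1, the members in which a search for both box cores found them. Capitals mark GCAAC, the core of the X box, and ATTGG, the core of the Y box, and the runs are written 5′ to 3′ on the strand of the gene. The H2-Aa run is chr17:34287824-34287973 on the minus strand and the H2-Eb1 run is chr17:34305717-34305866 on the plus strand.
H2-Aa: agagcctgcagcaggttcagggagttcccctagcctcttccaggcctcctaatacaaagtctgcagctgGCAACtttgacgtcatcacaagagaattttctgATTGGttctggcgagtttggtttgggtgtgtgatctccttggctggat
H2-Eb1: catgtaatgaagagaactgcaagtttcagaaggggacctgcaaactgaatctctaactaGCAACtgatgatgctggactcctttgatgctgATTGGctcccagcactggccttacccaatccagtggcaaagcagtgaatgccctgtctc

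GCAAC starts 33 bases before ATTGG in H2-Aa and 32 bases before it in H2-Eb1. The same pair stands 30 bases apart in H2-Ob and 32 bases apart in H2-Eb2, both neighbours in the class II region, shown for the common layout at chr17:34238810-34238860 and chr17:34325535-34325587 on the plus strand. H2-DMb1 and H2-DMb2, the near-identical copies whose counts are set apart below, hold ATTGG but no GCAAC at that distance, and the bases around ATTGG are shown at chr17:34153122-34153142 and chr17:34145151-34145171 on the plus strand.
H2-Ob: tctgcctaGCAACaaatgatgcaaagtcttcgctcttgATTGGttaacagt
H2-Eb2: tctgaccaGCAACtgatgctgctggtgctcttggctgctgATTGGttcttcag
H2-DMb1: actcagtgATTGGtctgacct
H2-DMb2: acttagtgATTGGactgactt

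The search covered both strands and asked for GCAAC starting 25 to 40 bases before ATTGG on the same strand. Of 32851 promoters in the table, 261 (0.794%) held that pair, and 37.4% held ATTGG on either strand. The pair was not found in the promoter entries of H2-DMa or Ctss, which says only that these letters are not in those windows.

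Expected counts summed to between 13688000 and 30332400 per library, and levels are given as CPM, counts per 1000000 after scaling with edgeR's trimmed mean of M values. A count of 3 in a library, taken as the floor, corresponded to between 0.109 and 0.243 CPM. Libraries varied widely, with a common biological coefficient of variation of 1.30. U3 small nucleolar RNA genes took 17.6% to 24.2% of counts in general and 6.65% to 14.5% in niche libraries, and mitochondrial genes 0.0846% to 0.400% and 1.24% to 1.80%. The part of these shares in the differences between the sorts was not tested. The macrophage marker list (10 genes, led by Lyz2) summed to between 11542 and 22524 CPM in general libraries and between 5820 and 10519 CPM in niche libraries. Neutrophil markers were abundant in all groups, at 9867 to 23433 CPM, and erythroblast markers summed to 12.4 to 100.01 CPM in general and 482 to 1416 CPM in niche libraries. Monocyte markers summed to 4794 to 5404 CPM in general and 784 to 1205 CPM in niche libraries, and eosinophil markers to 116 to 252 and 7.82 to 128 CPM. Plasma cell markers summed to 26.2 to 97.5 CPM in general and 278 to 1372 CPM in niche libraries, and T cell markers to 76.6 to 85.8 CPM in niche normal and 10.9 to 31.4 CPM in the other libraries. Most of the niche normal T cell sum was Lck, at 63.8, 30.5 and 60.5 CPM in libraries A to C. Trbc2 added 12.6, 17.9 and 7.98 CPM and Cd3d 21.4 CPM in library B. Cd3e, Trac and Cd8a were at most 3.06 CPM in these libraries.

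The I-A chains gave the clearest pattern of the 9 genes. H2-Aa stood at 221, 196 and 138 CPM in general normal libraries 1 to 3 and at 52.3, 61.4 and 97.4 CPM in general metastatic libraries 1 to 3. In niche macrophages it stood at 786, 706 and 815 CPM in normal libraries A to C and at 273, 287 and 268 CPM in metastatic libraries 1 to 3. No 2 of the 4 groups overlapped, and the order from high to low was niche normal, niche metastatic, general normal and general metastatic. The group means were 769 ± 56.6 CPM (SD, n = 3) in niche normal, 276 ± 10.04 in niche metastatic, 185 ± 42.8 in general normal and 70.4 ± 23.9 in general metastatic libraries. The spread of H2-Aa within groups, an SD of 0.30 on the log2 scale, was at percentile 3.15 of the tested genes, whose median SD was 2.06. That rank is over tested genes of every level, and genes of like level were not compared.

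H2-Ab1, the beta chain of the same pair, stood at 121, 117 and 178 CPM in general normal libraries 1 to 3 and at 66.2, 48.1 and 39.7 CPM in general metastatic libraries 1 to 3. Niche normal libraries A to C held 758, 424 and 489.7 CPM and niche metastatic libraries 1 to 3 held 254, 243 and 367 CPM. These groups were in the same order as those of H2-Aa, again with no overlap. The ratio of H2-Aa to H2-Ab1 counts ranged from 0.773 to 1.83 among general normal, 0.790 to 2.45 among general metastatic, 1.04 to 1.66 among niche normal and 0.730 to 1.18 among niche metastatic libraries.

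H2-Eb1 was much lower and more scattered. Its general libraries held 7.69, 0.297 and 15.6 CPM in normal marrow and 9.41, 10.9 and 1.43 CPM in metastatic marrow, in the order 1 to 3. Niche normal libraries A to C held 31.5, 23.0 and 95.2 CPM, and niche metastatic libraries 1 to 3 held 57.2, 14.2 and 35.3 CPM. The general normal 2 value rests on 5 counts. Niche normal libraries lay above all general normal libraries, and niche metastatic libraries above all general metastatic ones, although the gap in metastatic marrow was small (14.2 against 10.9 CPM). Normal and metastatic libraries overlapped in both populations.

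Cd74, the invariant chain, stood at 63.9, 30.02 and 56.8 CPM in general normal libraries 1 to 3 and at 17.003, 16.8 and 28.1 CPM in general metastatic libraries 1 to 3. In niche macrophages it stood at 224, 107 and 178 CPM in normal libraries A to C and at 39.3, 35.4 and 80.5 CPM in metastatic libraries 1 to 3. Normal exceeded metastatic in both populations and niche exceeded general in both marrow states, without overlap. Niche metastatic libraries overlapped with general normal ones, so the 4 groups of Cd74 did not all separate as those of H2-Aa did. The ratio of H2-Aa to Cd74 counts ranged from 2.42 to 8.12.

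Ciita, the transactivator of the class II genes, was detected unevenly. General normal libraries 1 to 3 held 20.5, 0.119 and 17.6 CPM, the second of them from 2 counts and under the floor, and general metastatic libraries 1 to 3 held 5.84, 0.226 and 3.62 CPM. Niche normal libraries A to C held 22.2, 127 and 4.52 CPM, and niche metastatic libraries 1 to 3 held 12.2, 13.8 and 19.4 CPM. The niche metastatic values lay close together and above all general metastatic values, whereas those of the other groups spread over more than the distance between groups.

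H2-DMa, the alpha chain of the peptide exchanger, stood at 166, 104 and 74.8 CPM in general normal libraries 1 to 3 and at 79.9, 37.3 and 34.0 CPM in general metastatic libraries 1 to 3. Niche normal libraries A to C held 210.2, 146 and 187 CPM and niche metastatic libraries 1 to 3 held 114, 63.2 and 85.7 CPM. In niche macrophages the normal libraries all lay above the metastatic ones. In general macrophages the groups overlapped, and so did the 2 populations in each marrow state.

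H2-DMb1 and H2-DMb2 are 2 near-identical copies of the H2-DM beta chain gene, and how well their reads were told apart was not tested. Their longest annotated transcripts are identical in 94.6% of the bases aligned without gaps, with an identical run of 221 bases. In 4 of 12 libraries the copies had fractional counts, and in all 4 the sum of the 2 was whole within 0.01, so reads had been divided between them there. In the other libraries both counts were whole within 0.01. H2-DMb1 was at or under the floor in all 3 niche normal libraries (0, 0 and 0.1004 CPM) and at 0 in general normal 1, while H2-DMb2 stood at 0.0812, 0.149 and 55.4 CPM in libraries A to C. Taken as 1 gene, they stood at 24.2 ± 29.0 CPM (SD, n = 3) in general normal, 8.70 ± 7.25 in general metastatic, 18.6 ± 32.0 in niche normal and 26.3 ± 1.02 in niche metastatic libraries. The niche metastatic libraries were alike, and each of the other groups held at least 1 library under 1 CPM.

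**Figure D1:**
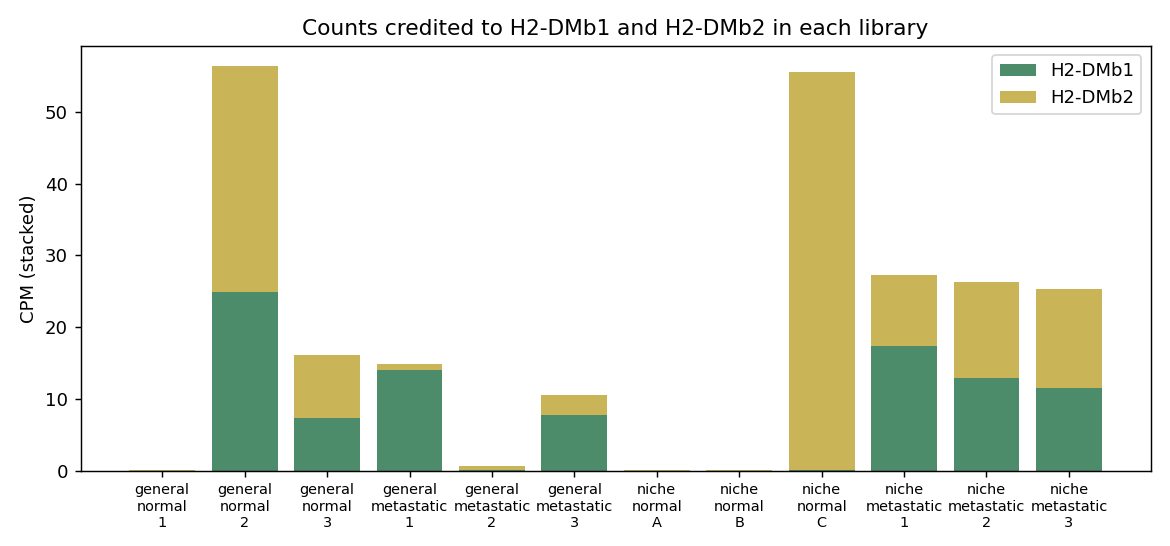
Stacked CPM (vertical axis) credited to H2-DMb1 and H2-DMb2 in each of the 12 libraries (horizontal axis). Niche metastatic libraries carried both copies, niche normal C almost only H2-DMb2 (55.4 CPM), and niche normal A and B neither copy above the floor.

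H2-DMb2 alone had a log2 fold change of 0.46 for niche against general macrophages in normal marrow, and at -6.77 without niche normal C. The summed pair, a choice made after seeing the data, had differences well inside their errors. Its log2 fold change was -0.38 ± 1.88 (SE) for niche against general macrophages in normal marrow and 0.50 ± 1.88 for metastatic against normal niche macrophages.

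Ctss, the protease that trims the invariant chain, departed from the chains. General normal libraries 1 to 3 held 150, 123 and 84.4 CPM and general metastatic libraries 1 to 3 held 57.9, 84.6 and 109.95 CPM. Niche normal libraries A to C held 134, 12.1 and 77.6 CPM and niche metastatic libraries 1 to 3 held 158, 41.3 and 29.4 CPM. All 4 groups overlapped.

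**Figure D2:**
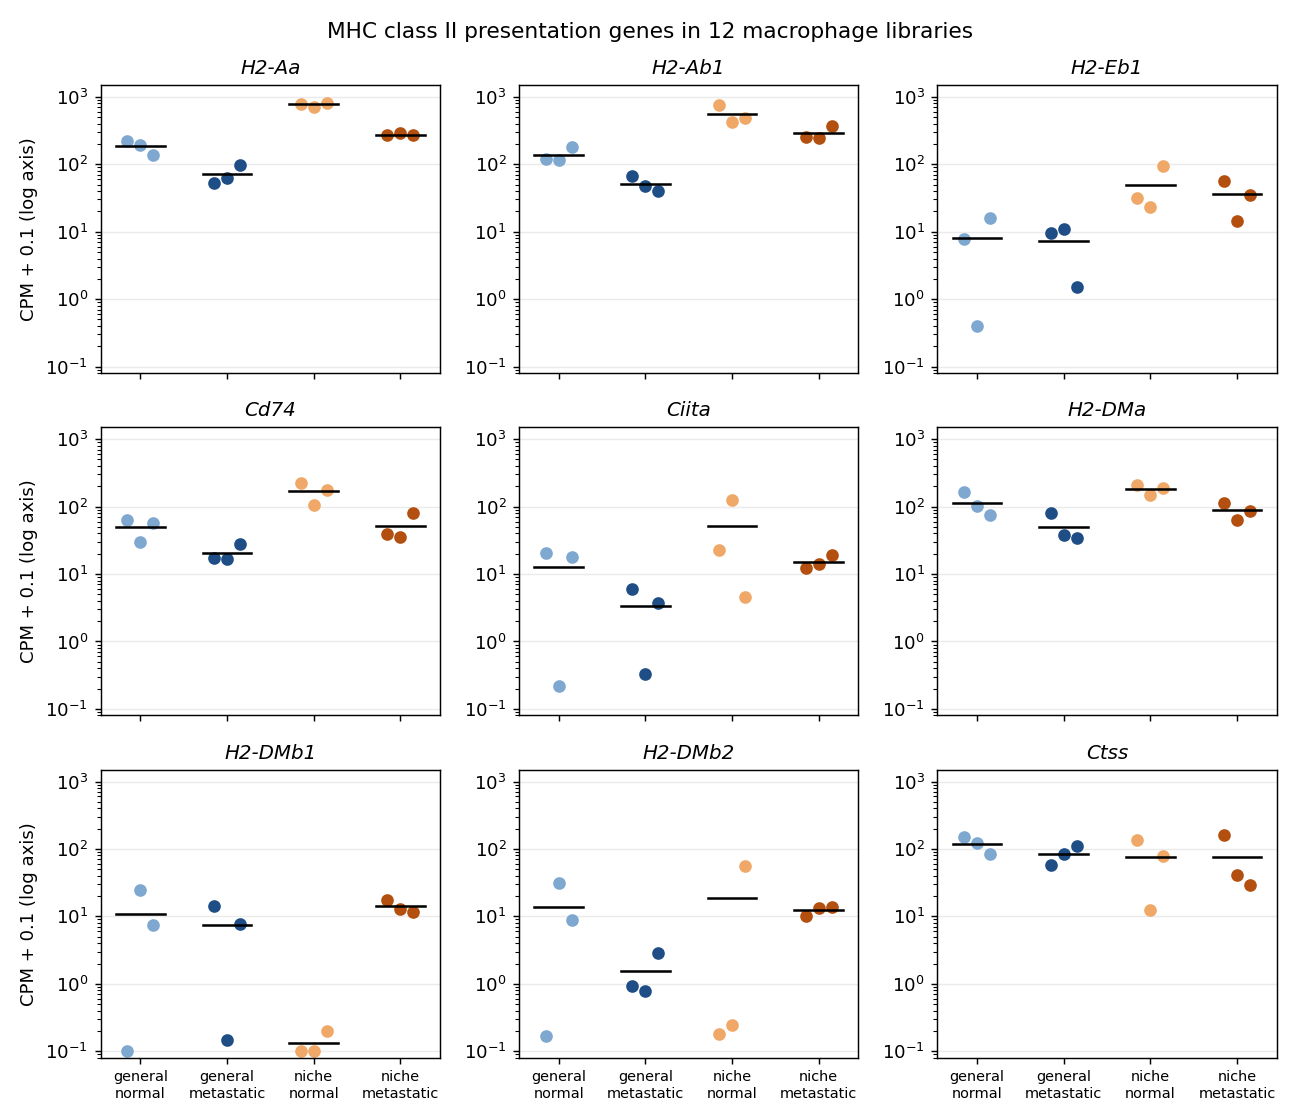
CPM plus 0.1 on a log axis for each of the 9 genes, with 1 point per library, 4 groups along the horizontal axis and a line at the group mean. H2-Aa and H2-Ab1 separate into 4 levels, Cd74 follows with overlap, and Ciita, H2-DMb1, H2-DMb2 and Ctss scatter within groups.

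Levels were also divided by the kilobases of exon annotated over all transcripts of a gene. This sets genes side by side only roughly, as the transcripts in use were not determined. Per kilobase, Ctss had the highest mean in general macrophages, at 87.8 ± 24.3 CPM per kb (SD, n = 3) in normal marrow. H2-Ab1 followed at 54.0 ± 13.3 and H2-Aa at 48.7 ± 11.3 CPM per kb, and these 2 did not differ beyond their spread. In niche normal libraries H2-Ab1 (217 ± 68.9 CPM per kb) and H2-Aa (203 ± 14.9) led and overlapped, followed by Cd74 at 101.05 ± 35.1, Ctss at 55.0 ± 44.996 and H2-DMa at 52.5 ± 9.41. Ctss overlapped with both of its neighbours in that order, reaching 98.8 CPM per kb in niche normal A. H2-Eb1 stood at 25.7 ± 20.3 CPM per kb there, below H2-Aa and H2-Ab1 in every library. Ciita had the lowest mean of the 9 genes per kilobase in both general groups and in niche metastatic libraries, and H2-DMb1 had the lowest mean in niche normal libraries.

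The comparison of the sorts asks how niche macrophages differ from general ones within each marrow state. In normal marrow, niche macrophages had 4.16-fold the H2-Aa and 4.02-fold the H2-Ab1 of general macrophages, with log2 fold changes of 2.06 ± 0.29 (SE) and 2.01 ± 0.32. The log2 fold change was 2.67 ± 1.33 for H2-Eb1, 1.75 ± 0.54 for Cd74, 2.00 ± 1.58 for Ciita, 0.66 ± 0.44 for H2-DMa and -0.68 ± 0.69 for Ctss. None of these was called by edgeR, whereas DESeq2 called Cd74 higher and H2-DMb1 lower in niche macrophages. The value of Ciita was 0.07 without niche normal B, the library at 127 CPM. That of H2-Eb1 ranged from 1.79 to 3.65 when 1 library was left out. H2-DMb1 averaged 0.0335 CPM in niche and 10.7 CPM in general normal libraries, and the groups overlapped. The edgeR quasi-likelihood test over all 12882 genes, with genes called at an adjusted p under 0.05, called 1.5% of genes higher and 0.97% lower, and H2-Aa and H2-Ab1 were 2 of those higher. Groups did not overlap and niche was higher for 4 of 9 members (H2-Aa, H2-Ab1, H2-Eb1 and Cd74), against 10% of all tested genes. Because the genes were chosen on these counts, nothing is read from the shares.

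In metastatic marrow the differences between the sorts were of similar size for the chains. The log2 fold change was 1.97 ± 0.28 (SE) for H2-Aa, 2.49 ± 0.33 for H2-Ab1, 2.29 ± 1.31 for H2-Eb1 and 1.32 ± 0.54 for Cd74. Ciita was at 2.23 ± 1.60, H2-DMa at 0.80 ± 0.44 and Ctss at -0.14 ± 0.69. With 1 library left out, Ciita ranged from 1.67 to 2.97 and Ctss from -1.26 to 0.25. H2-Aa and H2-Ab1 were again the 2 members called higher, where 0.574% of all tested genes were called higher and 0.256% lower. Groups did not overlap and niche was higher for 6 of 9 members (the 4 of normal marrow with Ciita and H2-DMb2), against 8.34% of all tested genes. H2-DMb1 and H2-DMb2 summed stood at 25.3 to 27.3 CPM in niche and 0.723 to 14.9 CPM in general libraries. The log2 fold change of that sum was 1.59 ± 1.92. The median log2 fold change of the 9 members was 1.75 in normal and 1.97 in metastatic marrow, beside 0.19 and 0.04 over all tested genes.

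The comparison of marrow states asks what differs in macrophages of mice with bone metastasis. In general macrophages, H2-Aa was at 2.63-fold and H2-Ab1 at 2.701-fold lower levels with metastasis, with log2 fold changes of -1.39 ± 0.28 (SE) and -1.43 ± 0.32. Cd74 was at -1.28 ± 0.54, H2-DMa at -1.19 ± 0.44, Ciita at -1.98 ± 1.58 and Ctss at -0.50 ± 0.69, and H2-Eb1 was at -0.12 ± 1.25. All 9 fitted values were negative, with a median of -1.28 beside -0.01 over all tested genes, but H2-Eb1 and H2-DMb1 turned positive with limma-voom (0.66 and 0.26) and each in 2 of the 6 fits without 1 library, and H2-Eb1 also with the replicate block (0.55). Groups did not overlap and metastatic was lower for 3 of 9 members (H2-Aa, H2-Ab1 and Cd74), against 5.64% of all tested genes. The edgeR test called 0.0155% of genes in either direction and none of the 9. Over all tested genes 660 had an unadjusted p under 0.05, and DESeq2 called 141 genes, H2-Aa and H2-Ab1 among them.

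In niche macrophages the log2 fold change with metastasis was -1.48 ± 0.28 (SE) for H2-Aa, -0.95 ± 0.31 for H2-Ab1, -1.71 ± 0.54 for Cd74 and -1.04 ± 0.44 for H2-DMa. H2-Eb1 was at -0.49 ± 1.25, Ciita at -1.76 ± 1.57 and Ctss at 0.03 ± 0.69. Without niche normal B the value was 0.18 for Ciita, and without niche normal C it was 0.38 for H2-Eb1, while Ctss ranged from -1.09 to 0.75 when 1 library was left out. The median of the 9 was -0.95 beside -0.17 over all tested genes. Groups did not overlap and metastatic was lower for 4 of 9 members (H2-Aa, H2-Ab1, Cd74 and H2-DMa), against 7.11% of all tested genes. H2-DMb1 lay the other way, at 11.5 to 17.4 CPM in metastatic and at most 0.1004 CPM in normal niche libraries, as the 1 member whose groups did not overlap with metastatic higher, against 5.63% of all tested genes. Counts of both copies were whole in niche metastatic 1 to 3 and in niche normal A and B. The summed log2 fold change of the pair was 0.50 ± 1.88, with niche normal C at 55.5 CPM. That error is too wide to show or exclude a difference of the pair. The edgeR test called 0.00776% of genes in either direction and none of the 9, and 1642 of all tested genes had an unadjusted p under 0.05. DESeq2 called 954 genes, with H2-Aa and Cd74 (lower) and H2-DMb1 (higher) among them, and limma-voom called 11, with H2-Aa among them. Without niche normal B, edgeR called 66 genes, H2-Aa included, against 1 with it.

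The metastasis difference itself was compared between the sorts. The niche minus general difference of log2 fold changes was -0.09 ± 0.39 (SE) for H2-Aa, 0.48 ± 0.44 for H2-Ab1, -0.37 ± 1.77 for H2-Eb1 and -0.43 ± 0.75 for Cd74. It was 0.22 ± 2.14 for Ciita, 0.14 ± 0.62 for H2-DMa and 0.53 ± 0.97 for Ctss. With 1 library left out, Ciita ranged from -0.34 to 2.15, Ctss from -0.59 to 1.25 and H2-Eb1 from -1.36 to 0.50. The sign also turned for H2-Aa and H2-DMa, but not for H2-Ab1 or Cd74. No gene of the 12882 tested was called for this difference by edgeR (0% of genes, with 1016 at an unadjusted p under 0.05), whereas DESeq2 called 410 genes, H2-DMb1 among them.

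**Figure D3:**
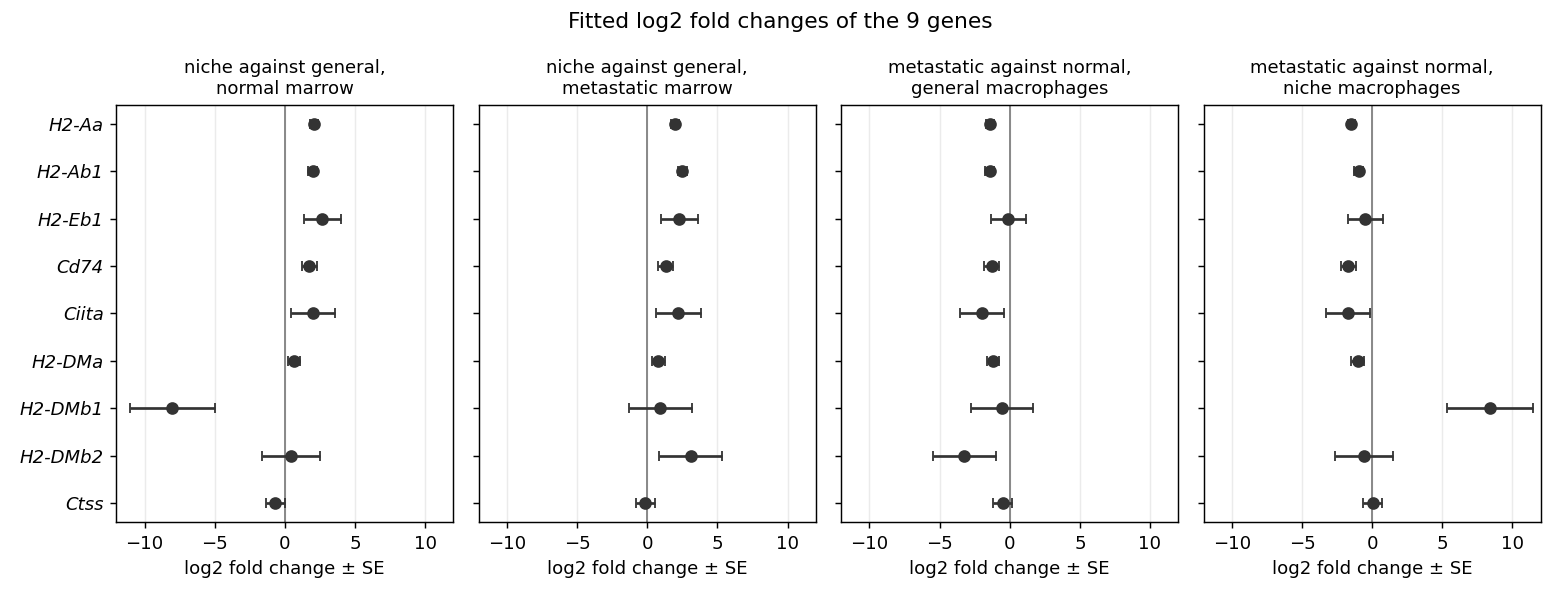
Fitted log2 fold change (horizontal axis, bars are SE) of each of the 9 genes (vertical axis) in the 4 comparisons. H2-Aa, H2-Ab1 and Cd74 lie to the right of 0 in both comparisons of sorts and to the left in both comparisons of marrow states, and H2-DMb1 and H2-DMb2 have the widest bars.

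Markers of B cells and conventional dendritic cells, which also transcribe class II genes, differed among the groups. The 11 B cell markers summed to between 37.5 and 81.9 CPM in general normal, 17.99 and 39.5 in general metastatic, 965 and 1217 in niche normal and 182 and 402 CPM in niche metastatic libraries. By median (1023, 240, 63.7 and 18.4 CPM) the groups stood in the same order as those of H2-Aa, with the 2 general groups overlapping. Between 5 and 6 of the 11 were above the floor in general libraries, 9 to 10 in niche normal and 5 to 10 in niche metastatic libraries. Pax5, the B lineage factor, was called higher by edgeR in niche than in general macrophages (log2 fold change 4.10 ± 0.92, adjusted p = 0.0182 in normal marrow and 3.901 ± 0.91, adjusted p = 0.0474 in metastatic marrow). The part of B cell RNA in the class II differences was not tested.

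Conventional dendritic cell markers (10 of 11 in the table) summed to between 44.4 and 70.2 CPM in general normal, 4.43 and 31.6 in general metastatic, 93.3 and 163 in niche normal and 41.3 and 114 CPM in niche metastatic libraries. Between 4 and 7 of the 10 were above the floor in a library. Of its defining genes, Xcr1 was above the floor in 2 libraries (general metastatic 2 and niche metastatic 2) and Zbtb46 in 5 niche libraries (normal A to C at 46.5, 0.249 and 60.7 CPM and metastatic 1 and 3 at 15.96 and 0.185 CPM) and no general library. Others of the list ran the other way in normal marrow, with Cd209a at 12.3, 26.9 and 21.1 CPM and Clec10a at 30.01, 10.98 and 0.04995 CPM in general normal libraries 1 to 3 and both at 0 in niche normal libraries A to C. Plasmacytoid dendritic cell markers summed to between 97.5 and 147 CPM in general normal, 88.3 and 123 in general metastatic, 148 and 212 in niche normal and 54.0 and 131 CPM in niche metastatic libraries, led by Runx2 in every library. By median the niche list was higher than the general one in normal marrow (206 and 126 CPM) and lower in metastatic marrow (85.1 and 94.9 CPM), whereas H2-Aa was higher in niche libraries in both. Their part was not tested either. In these bulk libraries, fewer cells of a type and less RNA per cell cannot be told apart.

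**Figure D4:**
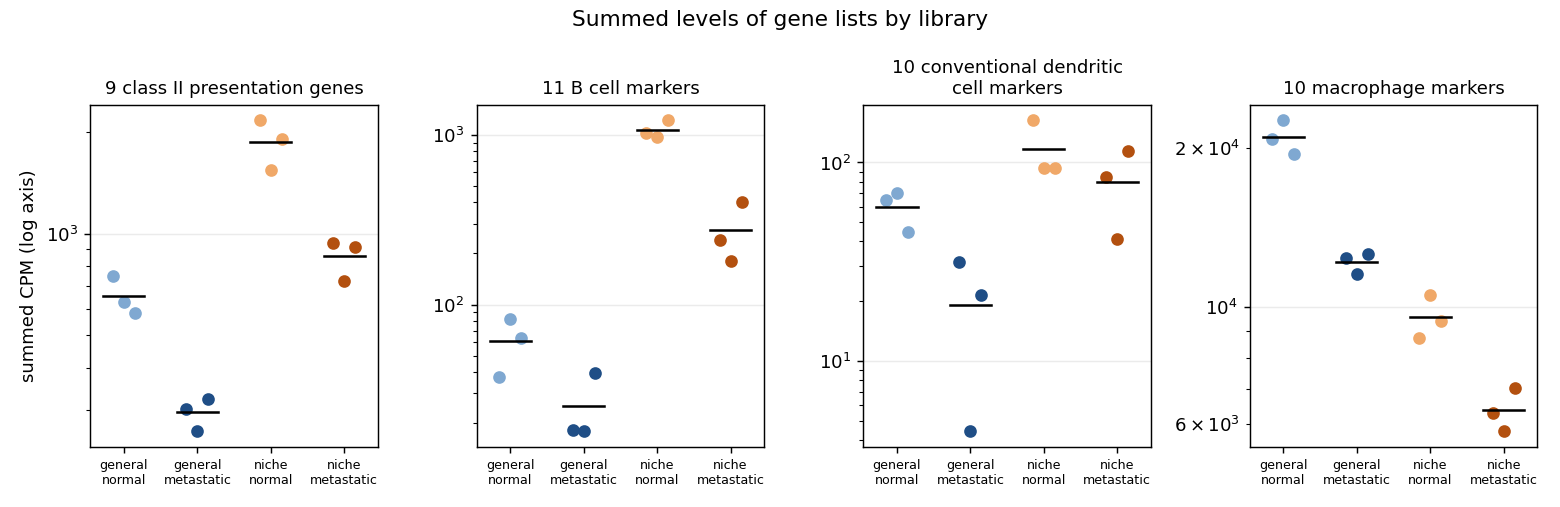
Summed CPM (log axis) of the 9 class II presentation genes and of 3 marker lists, with 1 point per library and a line at the group mean. The B cell list orders its 4 groups by median as H2-Aa does, from niche normal (965 to 1217 CPM) down to general metastatic (17.99 to 39.5 CPM), with the general groups overlapping, and the macrophage list has its general groups highest.

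The other genes of the pathway were taken from lists made by function, 28 genes of which 27 were tested and none of which is a member. These lists too were made with earlier results of the same libraries known, so their calls are no independent evidence about the pathway. In normal marrow edgeR called 3 of the 27 higher and 1 lower in niche macrophages, where 1.5% of all tested genes were called higher and 0.97% lower. All 4 belong to endosomal processing and trafficking. Ctsb and Ctsd, lysosomal cathepsins that degrade proteins in the endosome, rose to means of 1114 and 1047 CPM from 177 and 263 CPM. Their log2 fold changes were 2.65 ± 0.29 (SE, adjusted p = 2.42e-05) and 1.99 ± 0.26 (adjusted p = 1.36e-04) in edgeR's quasi-likelihood test, and the 3 niche libraries lay above the 3 general libraries for both.

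Lgmn, an asparaginyl endopeptidase that makes early cuts in antigen and invariant chain, stood at 399.8, 238 and 338 CPM in niche normal libraries A to C against 30.5, 1.01 and 7.59 CPM in general normal libraries 1 to 3. It was higher by 4.64 ± 0.78 on the log2 scale (edgeR, adjusted p = 0.00189). When 1 library was left out this ranged from 4.10 to 6.24, and all 6 fits kept the call. Ifi30, the thiol reductase of the endosome known as GILT, went the other way, at 0.243, 0.249 and 0.1004 CPM against 24.6, 24.1 and 53.3 CPM. Its log2 fold change was -7.39 ± 1.90 (edgeR, adjusted p = 0.0433), and the call was lost when any 1 of the 6 libraries was left out (adjusted p from 0.0703 to 0.143). With only the 6 libraries compared in the fit, edgeR's calls of Ifi30 (adjusted p = 0.104) and Lgmn (adjusted p = 0.0535) were lost. Limma-voom called neither Ifi30 (adjusted p = 0.156) nor Lgmn (adjusted p = 0.0557).

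In metastatic marrow 2 of the 27 were called higher in niche macrophages and none lower, beside 0.574% and 0.256% of all tested genes. Ctsb was higher by 1.62 ± 0.28 (edgeR, adjusted p = 0.00441) and Ctsd by 1.21 ± 0.25 (adjusted p = 0.0205 by edgeR). The Ctsd call was lost when general metastatic 1, general metastatic 2, niche metastatic 1 or niche metastatic 2 was left out (adjusted p from 0.0764 to 0.186), and with only the 6 libraries compared (adjusted p = 0.0799). Lgmn stood at 448, 224 and 209 CPM in niche metastatic libraries 1 to 3 against 63.6, 28.9 and 49.2 CPM in general metastatic libraries, a log2 fold change of 2.64 ± 0.71 that missed the threshold (edgeR, adjusted p = 0.126). It was called under 5 alternatives, DESeq2 (adjusted p = 0.00416) and the fit of only the 6 libraries compared (adjusted p = 0.0106) among them. Between marrow states none of the 27 was called in either population by edgeR, with 2 at an unadjusted p under 0.05 in general and 6 in niche macrophages, where 660 and 1642 of the 12882 tested genes had such a p.

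The lists upstream of the class II genes had no gene called in any comparison by edgeR. Of the 7 promoter factors, the one with the smallest p-value between the sorts in normal marrow was Rfx5, the X box factor, at 36.0 CPM in niche and 12.3 CPM in general libraries on average (log2 fold change 1.55 ± 1.57, adjusted p = 0.683). In metastatic marrow it was Nfyb, a subunit of the Y box factor NF-Y (-1.08 ± 0.51, adjusted p = 0.573). The median log2 fold change of the 7 promoter factors was 0.19 in normal marrow and -0.29 in metastatic marrow between the sorts, beside 0.19 and 0.04 over all tested genes. With metastasis it was -0.01 in general and -0.53 in niche macrophages, beside -0.01 and -0.17 over all tested genes.

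Of the 7 genes of interferon gamma signalling to Ciita, Usf1 had the smallest p-value in normal marrow. It was under the floor in all 3 niche normal libraries and at 15.2, 23.7 and 1.45 CPM in general normal libraries 1 to 3 (edgeR, adjusted p = 0.160). Jak2, the receptor kinase, had it in metastatic marrow (-0.93 ± 0.46, edgeR, adjusted p = 0.606).

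The 3 other class II chain genes are H2-Oa and H2-Ob, the inhibitor of H2-DM that B cells and thymus are known for, and H2-Eb2. H2-Ob stood at 45.4, 45.6 and 23.1 CPM in niche normal libraries A to C and at 0, 13.9 and 10.1 CPM in niche metastatic libraries 1 to 3, and at most 7.54 CPM in general libraries. Its log2 fold change between the sorts in normal marrow was 3.06 ± 2.10 (edgeR, adjusted p = 0.456). H2-Eb2 had the smallest p-value of these genes in metastatic marrow (4.68 ± 2.93, edgeR, adjusted p = 0.810). H2-Oa did not pass the filter on low counts.

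The class II region also holds genes outside the class II pathway. Psmb9, Tap1, Psmb8 and Tap2, which supply peptides to class I, had log2 fold changes between the sorts in normal marrow of 1.74 ± 1.49, 1.03 ± 0.62, -0.22 ± 1.54 and -0.53 ± 1.06, none of them called by edgeR. Brd2, a chromatin reader that overlaps H2-DMa, was at -0.02 ± 0.32 in normal and 0.08 ± 0.32 in metastatic marrow.

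**Figure D5:**
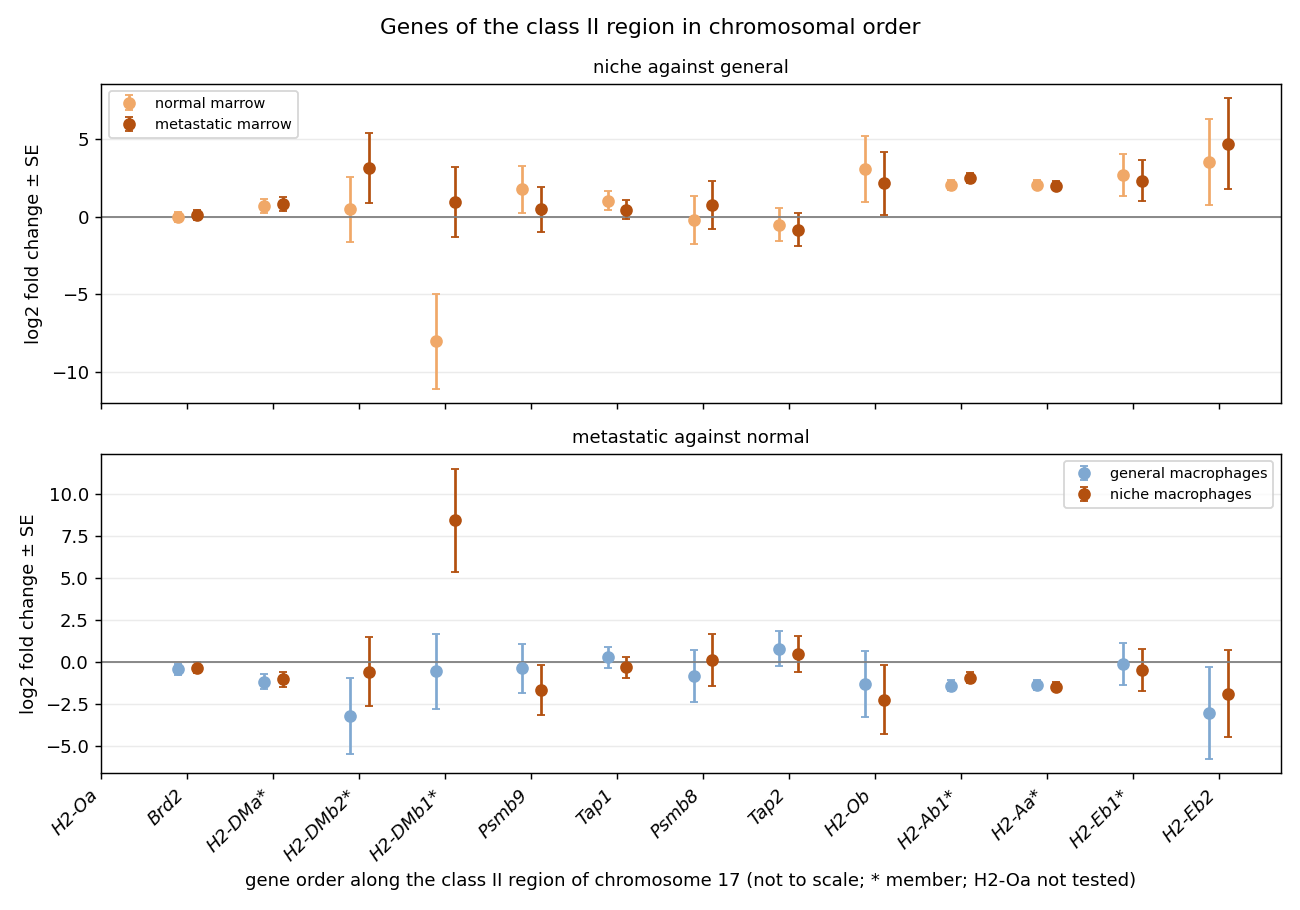
Log2 fold changes (vertical axis, bars are SE) of the genes of the class II region in chromosomal order along the horizontal axis, not to scale, for the 2 comparisons of sorts above and of marrow states below. H2-Ab1 and H2-Aa stand clear of 0 with narrow bars, while Brd2 lies near 0 in both comparisons of sorts.

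Of the tested genes, 8137 averaged 10 CPM or more, and for these likeness was measured as Pearson's r over the 12 libraries with the mean log2 CPM of H2-Aa, H2-Ab1, H2-Eb1 and Cd74. The 6 genes most like it were Marcks (r = 0.97), Mast4, Sdc3, Setd7, Dmxl1 and Snx5 (0.93 each). Marcks averaged 631 ± 123 CPM (SD, n = 3) in niche normal, 309.9 ± 112 in niche metastatic, 142 ± 54.8 in general normal and 87.3 ± 20.0 in general metastatic libraries. Within the 6 general libraries the closest were Abl1, Entpd1 and Atp6v0a2 (0.98 each), and within the 6 niche libraries Rab12 (0.999), Ripk1 and Stt3b (0.99 each), so no gene was named in more than 1 of these sets. Of the other members, over the 12 libraries r was 0.74 for H2-DMa, 0.64 for Ciita, 0.01 for H2-DMb2, -0.26 for Ctss and -0.44 for H2-DMb1. These are descriptions, since the libraries of a group share its level and the same libraries enter the r of every gene.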

How the data were processed

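The authors deposited 1 table of expected counts, 18467 gene symbols by 12 libraries, unnormalized as judged from the values. Per the submitters' processing notes, the build was mm10 and the tools named were STAR 2.7.3a, Partek, DESeq2 1.40.2 and R 4.3.1, without their roles. The annotation and strandedness are not given in the sources used here. Per the labels' protocols, RNA was depleted of ribosomal RNA before library preparation. Column numbers of the niche normal libraries differ from those in the titles, so those libraries are lettered.

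Counts were rounded to whole numbers, and filterByExpr kept 12882 genes. The quasi-likelihood test of edgeR 4.0.16 (R 4.3.3) was run with TMM scaling on all 12 libraries, each group having its own mean. Benjamini-Hochberg adjustment covered every tested gene, with calls at an adjusted p under 0.05. Standard errors come from the F statistic. Library totals ranged from 13688000 to 30332400. Log2 CPM for spread and likeness used a prior count of 2. Exon lengths and positions come from GENCODE M21 and promoters from RefSeq.

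The members and lists were chosen with earlier results of these data known. Named genes were the members, every wider pathway gene called in any comparison, the gene with the smallest p-value of a list with none called between the sorts, and the genes most like the chains (6 over all libraries, 3 within each sort). Marker lists were macrophage, B cell, plasma cell, conventional and plasmacytoid dendritic cell, monocyte, neutrophil, eosinophil, T cell and erythroblast. No 2 libraries of a group agreed within sampling noise (chi-square per degree of freedom from 139 to 411). Alternatives changed the scaling (RLE, or library size only), the filter (none, or 10 counts in all libraries), the tool (DESeq2 1.42.0, or limma 3.58.1 with voom and quality weights), the libraries fitted (only the 6 compared, or all but 1), and the model (replicate number as a block). Another omitted the U3, Rn7s, haemoglobin, immunoglobulin and mitochondrial genes. Summing H2-DMb1 and H2-DMb2 was added after the data were seen.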

Additional observations from a re-analysis of the deposited data

How the results depend on the processing

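The number of members called between the sorts was 2 in both marrow states under every alternative except DESeq2 in normal marrow, which gave 4 by adding Cd74 (higher) and H2-DMb1 (lower in niche macrophages), and was 2 in each fit that left out 1 library. With metastasis, edgeR called 0 members, and DESeq2 called 2 in general and 3 in niche macrophages and 1 for the difference between the sorts. Limma-voom called 1 in niche macrophages, and fits leaving out 1 library called 0 to 1 there. The 4 wider pathway genes called between the sorts in normal marrow became 2 with limma-voom and 2 with only the 6 libraries compared, and 3 to 4 when 1 library was left out. In metastatic marrow leaving out 1 library gave 1 to 2. DESeq2 called 2 wider pathway genes with metastasis in niche macrophages, against 0 by edgeR. Of the log2 fold changes of members and named pathway genes under an alternative, 16 gained a call, 15 lost one, and 0 called values changed direction. The counts over all genes depended on the tool: 318 in normal and 107 in metastatic marrow between the sorts by edgeR, 1825 and 480 by DESeq2, and 186 and 178 by limma-voom. With metastasis the counts were 2 in general and 1 in niche macrophages by edgeR, 141 and 954 by DESeq2, and 23 and 11 by limma-voom. Fitting only the 6 libraries compared gave 163 genes between the sorts in normal marrow and 0 with metastasis in niche macrophages. Without a filter the metastasis counts were 5 in general and 3 in niche macrophages. In niche macrophages the filter of 10 counts gave 3, RLE scaling 0 and the omission of the abundant RNA classes 2, and library size scaling gave 0 in both populations. For the difference between the sorts, edgeR called 0 genes, DESeq2 410, and fits without 1 library 0 to 16. Leaving out 1 library gave 176 to 402 and 66 to 83 genes between the sorts, 0 in general and 0 to 66 in niche macrophages with metastasis. Scaling by library size alone moved the median of all genes from 0.04 to 0.29 between the sorts in metastatic marrow and from -0.17 to 0.06 with metastasis in niche macrophages, on the log2 scale. The log2 fold change of H2-DMb2 between the sorts in normal marrow was 0.46, and -6.77 without niche normal C, and with metastasis in niche macrophages it was -0.58, and 6.65 without that library. The cause of these changes was not tested. Deviations of libraries of the same number had correlations from -0.01 to 0.03, and not every library correlated best with its own number. Between the sorts in metastatic marrow, numbers 2 and 3 did (0.03 each, against at most -0.0008 and -0.003 with another number). Correlations this low gave no clear pairing and cannot exclude shared mice. With the replicate block, 2 members, 3 wider pathway genes and 103 genes in all were called between the sorts in metastatic marrow, and 0, 0 and 1 with metastasis in general macrophages. The block could not be used for niche normal libraries.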
